A study of Cavia porcellus with 72 samples.

Results

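The transcripts described here encode the subunits of the NMDA receptor and of the related delta receptor in the hippocampus of young female guinea pigs. The members were chosen by symbol, as GRIN1, GRIN2A, GRIN2B, GRIN2C, GRIN2D, GRIN3A and GRID1. Counts were at hand for 6 of the 7, out of 11446 genes with a row in the count tables of all 3 generations, and GRIN2D was not analysed here. All 6 passed the filter on low counts in every generation, with between 255 and 16914 reads in a library. GRIN3B, of the same family as GRIN3A, was tested as well and was not called between treatments in any generation.

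The F0 females received betamethasone, a synthetic glucocorticoid (sGC), or saline vehicle (control) while pregnant, and the F1, F2 and F3 female offspring of the paternal line were studied at postnatal day 40. Animals were of the Dunkin-Hartley strain, an outbred guinea pig. F1 fetuses were exposed in the womb, whereas F2 and F3 animals descended from treated pregnancies through males. RNA-seq libraries of powdered right hippocampus came from 6 control and 5 sGC animals in F1, 6 and 6 in F2, and 6 and 7 in F3, with 13507449 to 19767033 reads counted per library.

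NMDA receptors are glutamate-gated channels that admit calcium and need a coagonist, glycine or D-serine, to open. GluN1, from GRIN1, is required in every such receptor and binds the coagonist, and the GluN2 subunits bind glutamate and set the time course and calcium signalling of the channel. In the forebrain GRIN2B is expressed from before birth and GRIN2A rises during postnatal maturation, GRIN2C is found largely in the cerebellum and in glia, and GluN3A, from GRIN3A, lowers calcium permeability and is most abundant in the immature brain. GRID1 encodes GluD1, a synaptic organiser of the delta family that binds cerebellins, which bridge it to presynaptic neurexins. Hippocampal glucocorticoid action and NMDA receptor signalling are both known for their part in stress responses and synaptic plasticity.

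Levels are given as counts per 1e+06 reads (CPM), with library sizes scaled by TMM over all 36 libraries, so that they share a scale across generations. CPM is not corrected for transcript length, and levels are therefore compared between groups for 1 gene and not between genes. Within a generation, sGC and control libraries were compared by the quasi-likelihood test of edgeR, p values were adjusted by the Benjamini-Hochberg method over all genes tested, and a gene was called at an adjusted p below 0.05.

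The label of the tissue was checked against marker genes. All 6 pyramidal neuron markers had counts, with summed levels of 7853 to 12180 CPM, and so did 4 of the 6 dentate granule cell markers, at 259.4 to 360.8 CPM. Of the markers of neighbouring tissue, those of striatal neurons summed to 66.8 to 96.4 CPM, those of thalamic neurons to 70.7 to 171.1 CPM and those of meningeal fibroblasts to 68.9 to 282.0 CPM. Libraries numbered 32 to 36 were all from sGC animals (2 in F1, 1 in F2 and 2 in F3) and carried numbers outside the runs of the other libraries. GRIN2B was highest in its group in libraries 32, 33 and 34, at 290.0, 290.1 and 228.8 CPM against at most 230.2, 226.1 and 190.3 CPM in the other sGC libraries of their generations. Whether these libraries were prepared apart was not given in the sources used here, so values without them are given beside the results that they moved most.

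No subunit passed the adjusted threshold between sGC and control animals in any generation. The 0 of 6 called in F1 stood beside 2.08% of all genes tested, the 0 of 6 in F2 beside 0% and the 0 of 6 in F3 beside 5.04%. Without libraries 32 to 36 no member was called either, and the shares of all genes were 0.845%, 0% and 2.79%. At an unadjusted p under 0.05 there were 3 members in F1 (GRIN2A, GRIN3A and GRID1), 1 in F2 (GRID1) and 2 in F3 (GRIN1 and GRID1), where 19.6%, 6.64% and 21.1% of all genes lay. For all genes in F2, 758 had an unadjusted p under 0.05. Of all genes tested there, edgeR's likelihood ratio test and DESeq2 called 6 and 9. Both of those tools called 1 member in F1, GRIN2A, and 1 in F3, GRIN1, and none in F2. Of all genes they called 5.26% and 5.54% in F1, 0.0526% and 0.0789% in F2, and 6.94% and 7.54% in F3. The median log2 fold change over the 6 members was 0.10 in F1, -0.01 in F2 and 0.00 in F3, beside -0.01, 0.00 and 0.00 over all genes. In no generation did the sGC and control values of a member stand fully apart, which was the case for 4.31% of genes in F1, 0.378% in F2 and 2.58% in F3.

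**Figure D1:**
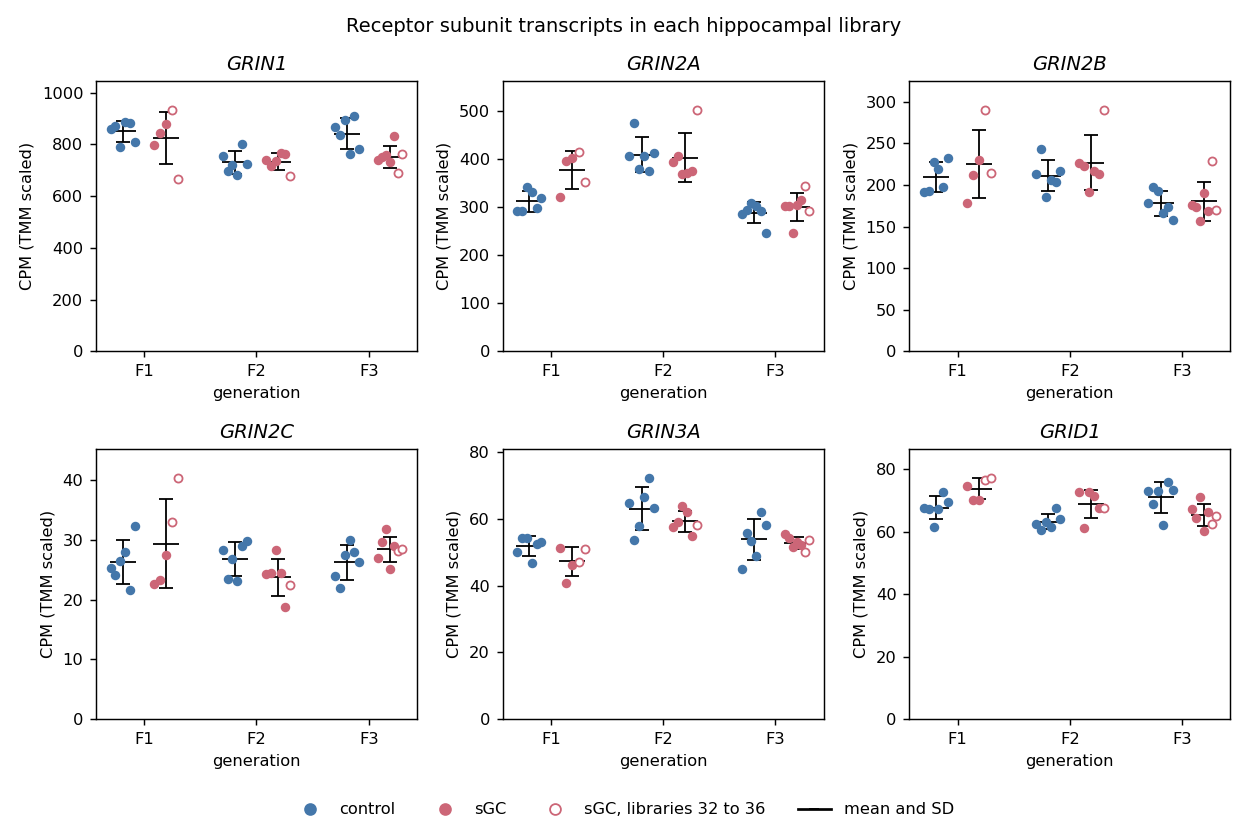
Level of each subunit transcript (CPM, linear axis from 0) in every library, by generation and treatment. Filled points are single libraries, open points are the sGC libraries numbered 32 to 36, and the black marks give the group mean and SD. The 5 F1 sGC libraries lie above the F1 control mean for GRIN2A, and the 7 F3 sGC libraries lie below the F3 control mean for GRIN1.

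GRIN2A gave the largest difference among the members. In F1 control animals it stood at 291.0, 291.1, 341.2, 331.6, 298.1 and 318.2 CPM, and in F1 sGC animals at 320.5, 394.5, 401.8, 352.3 and 414.5 CPM. All 5 sGC libraries were above the control mean, 4 of them above every control, and only replicate 1 fell within the control range. The control mean was 311.9 ± 21.7 CPM (SD, n = 6) and the sGC mean 376.7 ± 39.2 CPM (SD, n = 5), which gave a log2 fold change of 0.27 (SE 0.068, 95% interval 0.12 to 0.41, adjusted p = 0.063 by edgeR's quasi-likelihood test). The gene was therefore just short of the threshold, and the call moved with the setting. Without sGC replicate 1 the adjusted p was 0.018 and without sGC replicate 4 it was 0.039, whereas without libraries 32 to 36 the fold change was 0.25 with an adjusted p of 0.101. When all 3 generations were fitted together it was 0.27 with an adjusted p of 0.028. With replicate number as a block the adjusted p was 0.105. Over the 11 fits that each left out a library it reached 0.134, and 2 of them passed (edgeR's quasi-likelihood test).

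In the later generations the GRIN2A means of sGC and control animals lay closer together. F2 sGC animals had 401.8 ± 50.9 CPM (SD, n = 6) against 408.8 ± 35.6 in control (SD, n = 6), and the log2 fold change was -0.02 with an interval of -0.18 to 0.13. The F2 sGC mean was carried upward by replicate 6, library 33, at 501.5 CPM, while the other 5 lay between 367.5 and 404.9 CPM. Among F3 animals sGC libraries averaged 300.3 ± 29.4 CPM (SD, n = 7) and control libraries 288.1 ± 22.4 CPM (SD, n = 6), and the log2 fold change was 0.06 with an interval of -0.07 to 0.19. The difference itself was tested as an interaction over all 36 libraries, and the GRIN2A effect in F2 was lower than in F1 by a log2 value of -0.30 (SE 0.11, adjusted p = 0.149 by edgeR's quasi-likelihood test), and in F3 by -0.21 (adjusted p = 0.385), neither past the threshold. Leaving out F2 sGC replicate 6 moved the former to -0.37 with an adjusted p of 0.044, and only 1 of the 36 such fits passed. Without F2 control replicate 2 the former was -0.24, the value nearest 0. Over these fits its adjusted p reached 0.302 (edgeR's quasi-likelihood test).

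GRIN1, the obligatory subunit, differed most in F3. The F3 control libraries held 867.9, 835.0, 892.3, 761.6, 910.7 and 780.7 CPM. The F3 sGC libraries held, at lowest, median and highest, 687.6, 752.5 and 831.8 CPM. All 7 sGC libraries were below the control mean and 5 were below the lowest control, replicates 5 and 7 being the exceptions. Control animals averaged 841.4 ± 60.3 CPM (SD, n = 6) and sGC animals 752.0 ± 43.4 CPM (SD, n = 7), which gave a log2 fold change of -0.16 (SE 0.046, interval -0.26 to -0.06, adjusted p = 0.052 by edgeR's quasi-likelihood test). In the absence of F3 control replicate 4, F3 control replicate 6 or F3 sGC replicate 7 the adjusted p was 0.036, 0.043 and 0.026, and without libraries 32 to 36 the fold change was -0.14 with an adjusted p of 0.140. GRIN1 and GRID1 are among the genes that the study shows for this generation. For F1 the study calls GRIN2A differentially expressed at an FDR below 0.05 by edgeR's likelihood ratio test. It also reports a methylation difference in an enhancer region of GRIN2A and measured its mRNA by qRT-PCR. None of these genes was therefore chosen independently of these samples. With a robust dispersion the adjusted p of GRIN1 was 0.049, and with library totals not scaled by TMM it was 0.046. In the fit of all 3 generations together it was 0.085. Over the 13 fits that each left out a library it reached 0.109, and 3 of them passed (edgeR's quasi-likelihood test).

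In F1 and F2 the groups overlapped widely for GRIN1. F1 sGC animals had 823.7 ± 101.6 CPM (SD, n = 5) against 849.6 ± 39.5 in control (SD, n = 6), with the lowest and the highest value of all 11 libraries both among the sGC animals, at 664.6 CPM in library 35 and 932.7 CPM in library 32. The F2 means were 732.2 ± 33.2 and 730.3 ± 43.7 CPM (SD, n = 6 each), with a fold change of 0.00 on the log2 scale and an interval of -0.08 to 0.09. The effect in F3 was below that in F2 by -0.17 (unadjusted p = 0.043, adjusted p = 0.543 by edgeR's quasi-likelihood test) and below that in F1 by -0.12 (adjusted p = 0.561).

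Markers of several cell types moved beside GRIN1 in F3. Of the 6 pyramidal neuron markers 5 were lower in F3 sGC animals with none called, at a median log2 fold change of -0.07. Their summed level ran from 8516 to 12061 CPM in sGC and from 9529 to 10336 CPM in control animals. The median sum was higher in sGC animals, at 10844 CPM against 9859 CPM. All 8 astrocyte markers were higher in F3 sGC animals and 3 of them were called, with summed levels of 10501 to 12082 CPM against 9332 to 10296 CPM in control, ranges that did not overlap. All 7 interneuron markers were lower and 2 were called, at 603.1 to 713.4 CPM against 698.6 to 781.0 CPM. All 7 meningeal fibroblast markers (113.8 to 224.5 against 112.2 to 183.6 CPM), all 5 tested microglia markers and all 5 endothelium markers (314.7 to 381.5 against 313.8 to 346.3 CPM) were also higher in F3 sGC animals with none called. Of the 5 thalamic neuron markers 2 were higher, 1 of them called, at 70.7 to 171.1 against 86.5 to 160.6 CPM. In F1 all 8 astrocyte markers were higher as well, with none called, at 9747 to 15990 CPM against 8475 to 11123 CPM, and all 7 meningeal fibroblast markers were lower, with 2 called, at 68.9 to 139.7 CPM against 100.2 to 282.0 CPM. Lower in F1 with none called were also 5 of 6 pyramidal neuron markers (median -0.09) and 6 of 7 interneuron markers (median -0.11). The same held for all 3 tested oligodendrocyte markers (median -0.29). The summed pyramidal level in F1 went the other way, with a median of 11144 CPM in sGC and 10079 CPM in control animals. Over the 36 libraries, after taking out group means, GRIN1 and the astrocyte sum had a Pearson r of -0.44, a description of libraries that share their scaling. The part of cell composition in the GRIN1 and GRIN2A values was not tested. In bulk tissue, fewer cells of a type and less RNA per cell cannot be told apart.

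GRIN2B, the subunit that predominates early in life, was not called between treatments. Its control and sGC means were 209.9 ± 18.2 and 224.9 ± 41.04 CPM in F1, 211.2 ± 19.03 and 226.7 ± 33.3 in F2, and 177.8 ± 15.2 and 180.5 ± 23.5 in F3 (SD, n = 5 to 7). The log2 fold changes were 0.09, 0.10 and 0.02, with adjusted p values of 0.638, 0.812 and 0.903 by edgeR's quasi-likelihood test. The intervals reached from -0.12 to 0.30 in F1, from -0.07 to 0.28 in F2 and from -0.13 to 0.18 in F3. Without libraries 32 to 36 the F1 and F3 values turned to -0.02 and -0.04 and the F2 value was 0.02, and those libraries included the highest value of each sGC group.

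GRIN2C, the subunit with the lowest counts of the 6, had its widest spread in F1 sGC animals. Its values there were 22.6, 23.4, 27.4, 40.4 and 33 CPM, a coefficient of variation of 25.2%, the last 2 values being libraries 35 and 32. Control animals of F1 held 21.6 to 32.4 CPM. The log2 fold change was 0.15 in F1 (interval -0.15 to 0.45), -0.16 in F2 (interval -0.35 to 0.02) and 0.11 in F3 (interval -0.03 to 0.26), with adjusted p values of 0.587, 0.763 and 0.371 by edgeR's quasi-likelihood test. In F1 it was -0.10 without libraries 32 and 35. GRIN2C followed the astrocyte markers more closely than any other member did, with r = 0.59 over 36 libraries after taking out group means.

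GRIN3A, the subunit of the immature brain, was lower in F1 sGC animals at 51.3, 40.9, 46.3, 51.1 and 47.1 CPM, against 46.8 to 54.4 CPM in control. All 5 sGC libraries were below the control mean and 2 were below every control. The log2 fold change of -0.14 (SE 0.060, interval -0.27 to -0.01) had an unadjusted p of 0.034 and an adjusted p of 0.211 by edgeR's quasi-likelihood test. Its fold changes were -0.09 in F2 and -0.03 in F3, with adjusted p values of 0.796 and 0.847, so the 3 estimates had the same sign without passing the threshold.

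**Figure D2:**
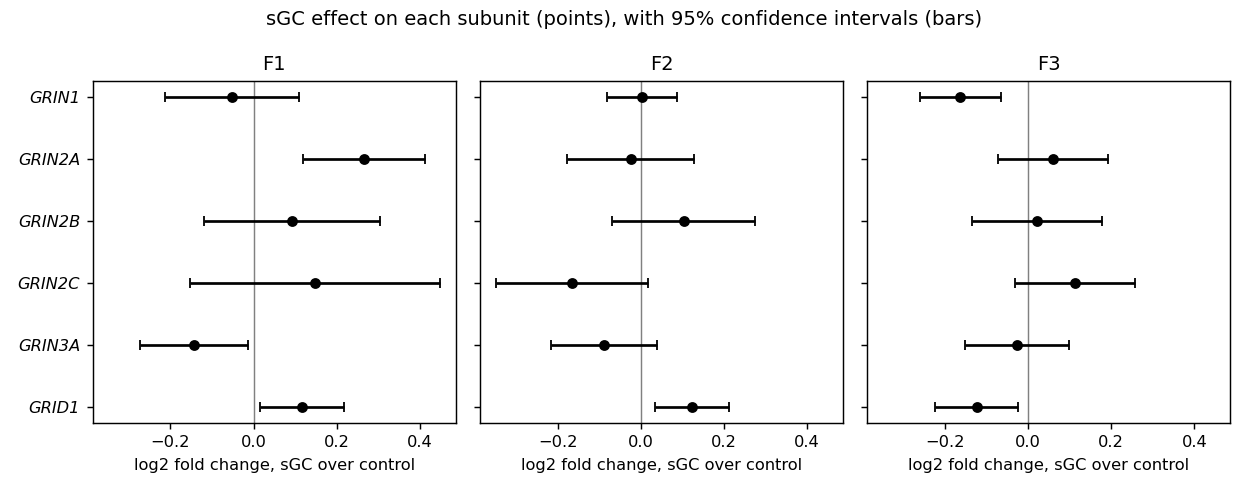
Log2 fold change of sGC over control for each subunit in F1, F2 and F3, with the 95% confidence interval of the edgeR fit as bars. GRIN2A in F1, at 0.27, and GRIN1 in F3, at -0.16, lie farthest from 0 relative to their intervals, and GRID1 lies above 0 in F1 and F2 and below 0 in F3.

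GRID1, the delta subunit, was the member with a small difference in every generation, and its sign was not the same throughout. In F1 the control libraries held 67.5, 67.2, 61.5, 67.4, 72.8 and 69.3 CPM and the sGC libraries 74.6, 70.3, 70.1, 77.2 and 76.4 CPM, so that 5 of 5 were above the control mean and 3 were above every control. The F2 control libraries held 62.4, 60.5, 63.1, 61.6, 67.5 and 64.2 CPM and the sGC libraries 61.2, 72.7, 72.6, 71.3, 67.5 and 67.6 CPM, and 5 of 6 sGC libraries were above the control mean. The F3 control libraries held 73.0, 68.7, 72.9, 62.2, 76.0 and 73.2 CPM, and the F3 sGC libraries, at lowest, median and highest, 60.2, 65.2 and 71.1 CPM. There 6 of 7 sGC libraries were below the control mean and 1 was below every control. Within each generation the groups overlapped.

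The log2 fold changes of GRID1 were 0.12 in F1 (SE 0.047, adjusted p = 0.194), 0.12 in F2 (SE 0.042, adjusted p = 0.678) and -0.12 in F3 (SE 0.047, adjusted p = 0.142), by edgeR's quasi-likelihood test, and the unadjusted p values were 0.027, 0.010 and 0.019. As an interaction the F3 effect was lower than that of F1 by -0.25 (SE 0.066, interval -0.38 to -0.11, unadjusted p = 0.00064, adjusted p = 0.113) and lower than that of F2 by -0.25 (SE 0.065, interval -0.38 to -0.11, unadjusted p = 0.00054, adjusted p = 0.346). These contrasts share the F3 libraries. Without F1 sGC replicate 4 the difference from F1 was smaller, at -0.23, while its adjusted p was 0.046. This was the 1 fit of 36 leaving out a library that passed, and the adjusted p reached 0.211. Without F3 control replicate 4 the F3 effect alone was -0.16 with an adjusted p of 0.048. That was 1 of 13 such fits, in which the adjusted p reached 0.236 (edgeR's quasi-likelihood test). Without libraries 32 to 36 the F3 effect differed from that of F1 by -0.19 and from that of F2 by -0.24.

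For the differences of effect between generations, 0 of 6 members were called. All genes gave 0.29% for F2 against F1, 0% for F3 against F1 and 0% for F3 against F2, which became 0.596%, 3.77% and 0% without libraries 32 to 36, again with no member called. In all libraries the likelihood ratio test and DESeq2 also called no member. The members at an unadjusted p under 0.05 were GRIN2A and GRIN2C for F2 against F1, GRID1 for F3 against F1, and GRIN1 and GRID1 for F3 against F2. The GRIN2C difference of F2 from F1 was -0.32 with all libraries and -0.04 without libraries 32 to 36 (adjusted p = 0.294 and 0.913 by edgeR). Over all genes 1490 and 1034 lay under that unadjusted threshold for F3 against F1 and against F2, with 58 and 0 called by the likelihood ratio test and 61 and 0 by DESeq2.

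Averaged over the 3 generations, the sGC effect was -0.07 for GRIN1, 0.10 for GRIN2A, 0.07 for GRIN2B, 0.03 for GRIN2C, -0.08 for GRIN3A and 0.04 for GRID1 on the log2 scale. Again 0 of 6 were called, beside 8.53% of all genes, a share that was 0.473% without libraries 32 to 36, with adjusted p values from 0.130 to 0.784 by edgeR's quasi-likelihood test. GRIN1, GRIN2A and GRIN3A had an unadjusted p under 0.05, and the likelihood ratio test and DESeq2 called none. Without libraries 32 to 36 the mean effect was -0.05 for GRIN1, 0.06 for GRIN2A and -0.09 for GRIN3A, with adjusted p values of 0.480, 0.535 and 0.311 by edgeR.

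The read counts of GRIN2A and GRIN2B within a library give a ratio that is free of library scaling. In control animals of F1 the GRIN2A count was 1.37 to 1.52 times the GRIN2B count, and in sGC animals it was 1.80, 1.86, 1.75, 1.65 and 1.43 times. As log2 ratios the means were 0.57 ± 0.06 in control (SD, n = 6) and 0.76 ± 0.15 in sGC animals (SD, n = 5), a difference of 0.18 (SE 0.071), and 4 of 5 sGC libraries lay above every control. The exception was library 32, which had the highest GRIN2B level of the generation, and without libraries 32 and 35 the difference was 0.28. In F2 the order was the opposite, with 0.95 ± 0.05 in control and 0.83 ± 0.06 in sGC animals (SD, n = 6 each), a difference of -0.12 (SE 0.033), and 5 of 6 sGC libraries lay below every control. Library 33, in which both genes were highest among the F2 sGC libraries, had a ratio of 0.79, within the range of the other 5. In F3 the means were 0.70 ± 0.10 (SD, n = 6) and 0.74 ± 0.11 (SD, n = 7), a difference of 0.04 (SE 0.057), and the groups overlapped over most of their range. These ratios are given as a description without a test, and counts of 2 transcripts of unlike length do not give a molar ratio.

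**Figure D3:**
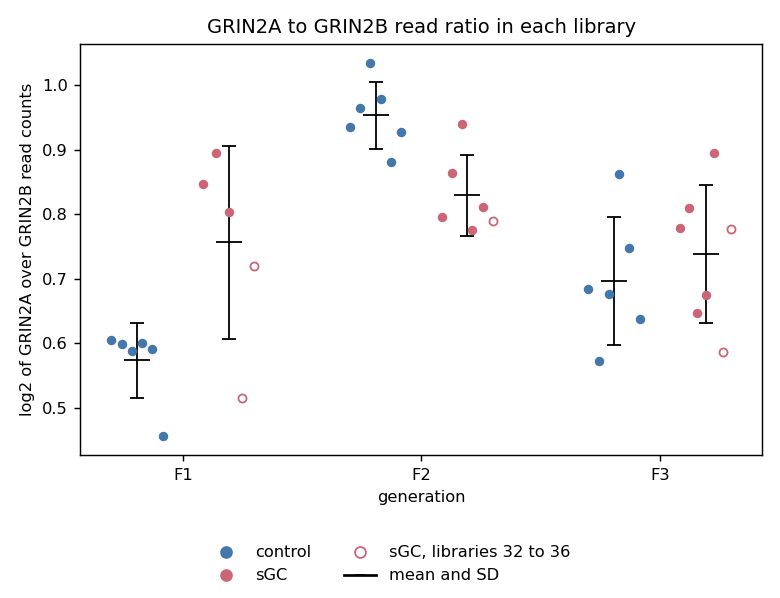
Log2 of the GRIN2A read count over the GRIN2B read count in each library, by generation and treatment, with the group mean and SD in black and the sGC libraries numbered 32 to 36 as open points. The sGC mean lies 0.18 above control in F1, 0.12 below it in F2 and 0.04 above it in F3.

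F2 animals stood apart from those of F1 and F3 in several of the subunits. Among control animals, 5 of 6 members were called by edgeR's F test across the 3 generations, GRIN2C being the exception, but so were 42.4% of all genes. GRIN2A in control animals was at 408.8 ± 35.6 CPM in F2, against 311.9 ± 21.7 in F1 and 288.1 ± 22.4 in F3 (SD, n = 6 each). The 6 F2 values, 374.6 to 474.5 CPM, stood above all 12 control values of the other generations, which reached from 245.6 to 341.2 CPM. The log2 difference was 0.39 from F1 to F2 (SE 0.074, adjusted p = 4.1e-05) and -0.50 from F2 to F3 (SE 0.074, adjusted p = 6.3e-07), by edgeR's quasi-likelihood test.

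GRIN1 had the opposite order, with the lowest level in F2. Its control means were 849.6 ± 39.5 CPM in F1, 730.3 ± 43.7 in F2 and 841.4 ± 60.3 in F3 (SD, n = 6 each), with F2 below F1 by -0.22 (adjusted p = 0.0018) and F3 above F2 by 0.20 (adjusted p = 0.0041) on the log2 scale. GRIN3A, like GRIN2A, was highest in F2, at 63.1 ± 6.5 CPM against 51.8 ± 2.9 in F1 and 53.9 ± 6.2 in F3, by log2 differences of 0.28 (adjusted p = 0.00042) and -0.23 (adjusted p = 0.0043). GRIN2B was at 209.9 and 211.2 CPM in F1 and F2 and at 177.8 in F3, the log2 difference of F3 from F2 being -0.25 (adjusted p = 0.033, a call lost in 6 of 36 fits that left out a library), and that from F1 -0.24 (adjusted p = 0.509). GRID1 ran from 63.2 CPM in F2 through 67.6 in F1 to 71.0 in F3, of which the step between F2 and F3 was called (0.17, adjusted p = 0.0043) and that between F1 and F2 was not (adjusted p = 0.089). GRIN2C stayed between 26.3 and 26.8 CPM. These values are from edgeR's quasi-likelihood test on all 36 libraries.

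Pair by pair, 3 of 6 members were called between control animals of F1 and F2, beside 44.9% of all genes, and 5 of 6 between F2 and F3, beside 38%. Between F1 and F3 it was 0 of 6, beside 0.0176% of all genes, with GRIN2B alone under an unadjusted p of 0.05, and the likelihood ratio test and DESeq2 called 9 and 8 of all genes. The sGC animals gave 4 of 6 across the 3 generations, beside 36.5% of all genes. For them 2 of 6 were called from F1 to F2 (GRIN1 and GRIN3A, beside 23.6%), 2 of 6 from F1 to F3 (GRIN2A and GRID1, beside 1.33%) and 3 of 6 from F2 to F3 (GRIN2A, GRIN2B and GRIN3A, beside 38.7%). GRIN2A in sGC animals differed by -0.33 on the log2 scale from F1 to F3, with means of 376.7 and 300.3 CPM (adjusted p = 0.027), while in control animals it differed by -0.11 (adjusted p = 0.782, both by edgeR's quasi-likelihood test). Each generation was a separate cohort with its own count table, so generation, cohort and the counting of each table cannot be told apart. Library 33, numbered outside the run of F2 libraries, had a GRIN2A level above that of every F1 and F3 library.

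Across animals of the same group, the subunits did not vary as a block. After taking out group means, GRIN2A and GRIN2B had a Pearson r of 0.84 over 36 libraries, and 0.81 over the 31 libraries outside 32 to 36. GRIN1 was unrelated to GRIN2A, at r = -0.05, and to GRIN2B, at r = -0.04, while GRID1 and GRIN2A had r = -0.47, or -0.54 over the 31 libraries. These values are descriptions, since the points share library preparation, depth and scaling.

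The genes most like each subunit in this measure differed between the members. GRIN1 was closest to CAMK2B, a subunit of calcium and calmodulin-dependent kinase II, to CLSTN1 and to LMTK3, each at r = 0.89 or 0.90. GRIN2A was closest to LRRC40 (0.91), PLXNA4, a semaphorin receptor component (0.89), and RYR2, a calcium release channel (0.89). The partners of GRIN2B were MYCBP2 and HERC2, both ubiquitin ligases, and VPS13D (0.87 to 0.88). For GRIN2C they were BBOX1, an enzyme of carnitine synthesis, ACAA2, an enzyme of fatty acid oxidation, and WASF3 (0.73 to 0.74). GRIN3A had the loosest partners, CHRM4, a muscarinic receptor, MDK and MPPED1 (0.62 to 0.65), and GRID1 had PLPPR3, CEP170B and LASP1 (0.68 to 0.71).

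**Figure D4:**
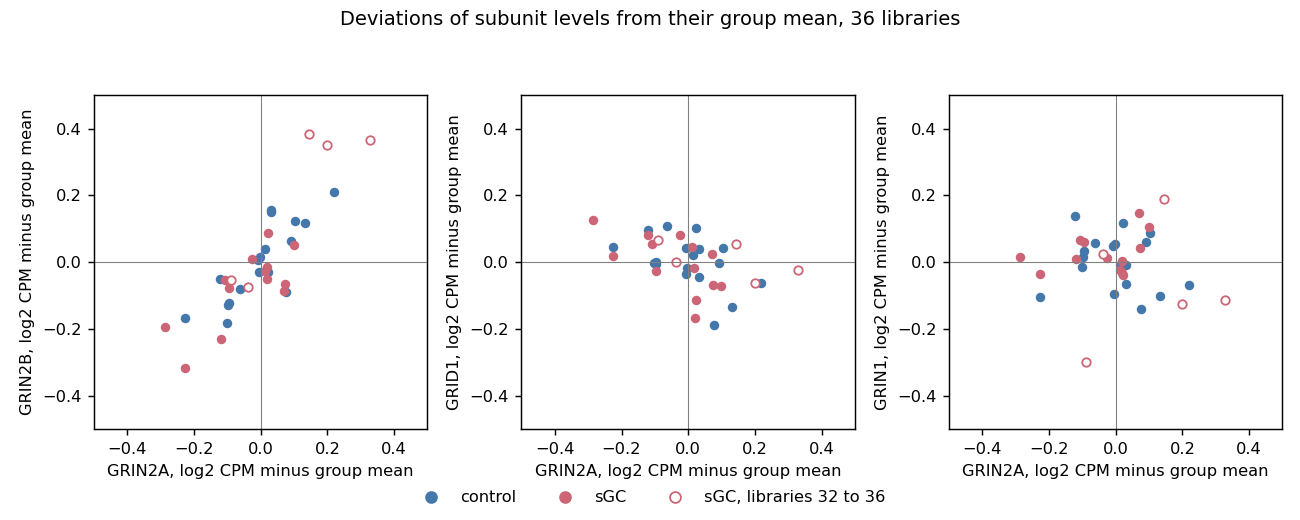
Deviation of each library from its group mean (log2 CPM) for GRIN2A on the horizontal axis and GRIN2B, GRID1 or GRIN1 on the vertical axis, for 36 libraries, with the sGC libraries numbered 32 to 36 as open points. GRIN2A and GRIN2B lie along a rising diagonal (r = 0.84), GRID1 leans the other way (r = -0.47) and GRIN1 shows no slope (r = -0.05).

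The genes around these receptors were followed in 4 lists, covering anchoring and trafficking, kinases and other effectors, coagonist supply, and partners of delta receptors. The last list also took in NPTX1, C1QL1, C1QL2 and C1QL3, whose binding to GluD1 was not examined. In F1, 4 of 64 tested genes were called (6.25%), beside 2.08% of all genes, and all were higher in sGC animals, while 38 of the 64 were higher and the median log2 fold change was 0.02. In F2, 0 of 63 were called, with 10 at an unadjusted p under 0.05 and no call by the likelihood ratio test or DESeq2. In F3, 6 of 64 were called (9.38%, beside 5.04% of all genes), 4 higher and 2 lower, with a median of -0.02. In each generation the median of all genes lay within 0.01 of 0.

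The genes called in F1 came from 3 lists. NOS1, the neuronal nitric oxide synthase tethered to the receptor through PSD-95, rose from 86.3 ± 6.7 to 108.0 ± 10.3 CPM (log2 fold change 0.31, adjusted p = 0.033). CREB1, a transcription factor reached by calcium signals from the receptor, rose from 20.02 ± 1.6 to 24.4 ± 1.7 CPM (0.28, adjusted p = 0.049). SHANK2, a scaffold of the postsynaptic density, rose from 142.5 ± 6.4 to 164.2 ± 9.2 CPM (0.20, adjusted p = 0.045). NRXN3, a presynaptic neurexin, rose from 32.02 ± 3.5 to 43.5 ± 5.9 CPM (0.43, adjusted p = 0.034; SD, n = 6 control and 5 sGC, edgeR's quasi-likelihood test). These calls were close to the threshold. In the 11 fits that each left out a library, NOS1 passed in 3, CREB1 in 2, SHANK2 in 2 and NRXN3 in 4, and without libraries 32 and 35 only NRXN3 passed. PRKCA, which the study names among its F1 genes, was not called here (0.24, adjusted p = 0.080 by edgeR's quasi-likelihood test).

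In F3 the scaffold genes moved in both directions. The study names SHANK1, DLG4, GLDC and GRIA1 among its own differentially expressed F3 genes from these same samples. SHANK1 rose from 538.3 ± 39.0 to 639.1 ± 42.3 CPM (log2 fold change 0.25, adjusted p = 0.0093) and SHANK3 from 261.5 ± 13 to 309.0 ± 25.8 CPM (0.24, adjusted p = 0.012). DLG4, which encodes PSD-95, rose from 768.6 ± 20.4 to 845.2 ± 48.5 CPM (0.14, adjusted p = 0.047), whereas DLG3, which encodes the related SAP102, fell from 201.8 ± 4.9 to 179.5 ± 6.5 CPM (-0.17, adjusted p = 0.0057). PTK2B, a tyrosine kinase of the receptor complex, fell from 605.8 ± 25.1 to 537.5 ± 29.8 CPM (-0.17, adjusted p = 0.017). GLDC, the glycine decarboxylase of the glycine cleavage system, which is found in astrocytes, rose from 67.2 ± 3.6 to 74.4 ± 2.7 CPM (0.15, adjusted p = 0.040; SD, n = 6 control and 7 sGC, edgeR's quasi-likelihood test).

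DLG3, PTK2B, SHANK1 and SHANK3 passed in each of the 13 fits that left out a library, DLG4 in 1 and GLDC in 4. Without libraries 32 to 36 the calls of PTK2B (adjusted p = 0.056) and GLDC (adjusted p = 0.115) were lost and the other 4 passed. In the fit of all generations together DLG3 alone passed. All 11 delta receptor partners were lower in F3 and none of them was called, with a median of -0.07, and 2 had an unadjusted p under 0.05. Of the 9 AMPA and kainate receptor subunits, 8 were lower in F3 with a median of -0.09, and 1 was called, GRIA1, which fell from 1272 ± 58 to 1150 ± 45 CPM (-0.15, adjusted p = 0.023 by edgeR's quasi-likelihood test), a fold change near that of GRIN1. That call was lost without libraries 32 to 36 (adjusted p = 0.060), without F3 control replicate 3 (0.056) or F3 sGC replicate 5 (0.055), and in the fit of all generations together (0.083). In F1 and F2 none of the 9 was called, and 0 in each generation had an unadjusted p under 0.05. The astrocyte and interneuron marker levels given above for F3 lay beside these values too, and their part was not tested.

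**Figure D5:**
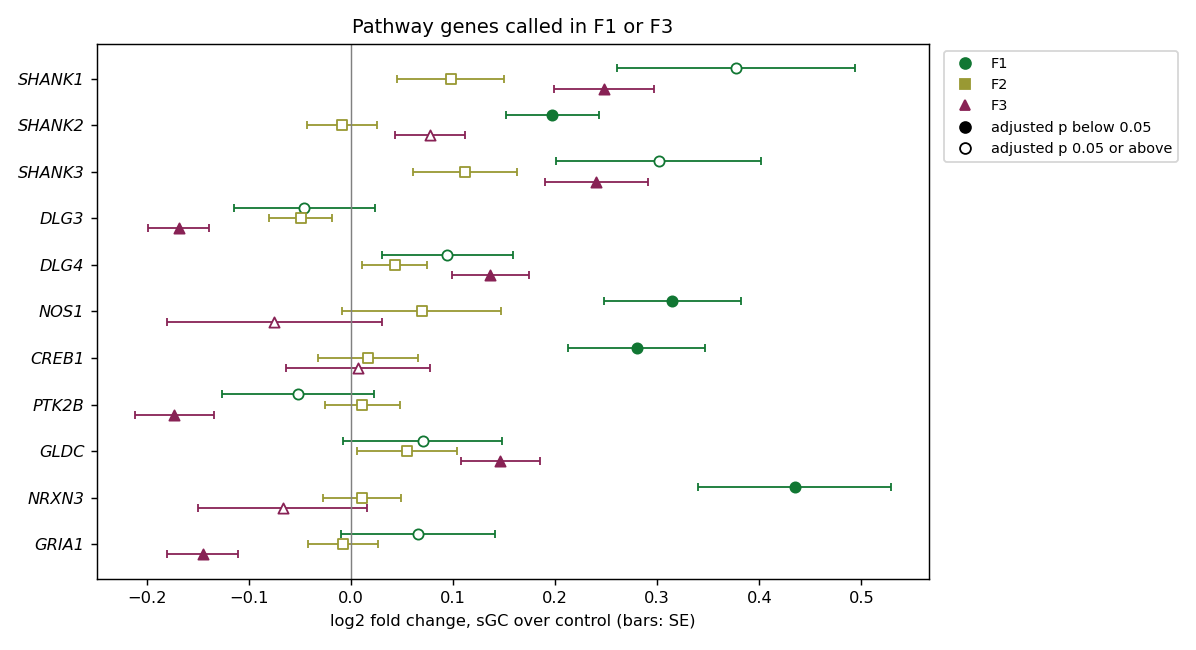
Log2 fold change of sGC over control (points) with its SE (bars) in F1, F2 and F3 for the 11 genes of the pathway lists that were called in a generation. Filled points mark an adjusted p below 0.05. SHANK2, NOS1, CREB1 and NRXN3 are filled in F1 only, the other 7 in F3 only, and no point is filled in F2.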

How the data were processed

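Hippocampal RNA-seq counts of 36 libraries were used, grouped by the sample labels. Values as deposited are whole-number counts of reads on each gene, not normalized, which the authors made from mRNA libraries of a TruSeq V2 kit. The submitters' processing notes name TopHat2 and edgeR. The genome build and the counting tool of the RNA data were not given in the sources used here, nor was the use of strand. Columns of the authors' own comparison (fold changes, likelihood ratios, p-values) and the methylation tables, which hold only sGC against control differences, were not used. The labels number animals but do not say more about their origin, so p-values measure the spread between these samples.

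Counts were analysed in R 4.3.3 with edgeR 4.0.16 (filterByExpr, TMM, quasi-likelihood test, Benjamini-Hochberg adjustment, threshold 0.05) and DESeq2 1.42.0 as an alternative, and figures were drawn with matplotlib 3.10.9. Each generation was fitted alone, and differences between generations on all 36 libraries over genes present in every table. Log2 CPM used a prior count of 2. From 13507449 to 19767033 reads were counted per library, which limits precision most for GRIN2C. The fits were tested on simulated counts. The members and lists were chosen with earlier results of these data known, and the study named GRIN2A among F1 genes and showed GRIN1 and GRID1 among F3 genes on these samples. Of the list genes it named PRKCA in F1 and SHANK1, DLG4, GLDC and GRIA1 in F3. Named pathway genes were those past an adjusted p of 0.05, up to 4 per list and generation, and likeness was given for the 3 genes with the highest r. Alternatives were the likelihood ratio test, DESeq2, other scaling, filter and dispersion settings, a joint fit, a replicate block, and leaving out libraries. The comparison of sGC libraries across generations, and of control generations pair by pair, was added after seeing the data. No library differed from another of its group by less than sampling noise.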

Additional observations from a re-analysis of the deposited data

Results flagged for a closer look

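Dixon's test at the 95% level was run on 54 groups of member levels and ratios, and 5 held a sample apart from the others, where chance gives about 1 in 20. GRIN2A stood apart in F2 control replicate 2, at 474.5 CPM with the other 5 between 374.6 and 411.2. It also did so in F2 sGC replicate 6 (library 33), at 501.5 CPM with the others between 367.5 and 405.0, and that library was apart for GRIN2B as well, at 290.1 CPM with the others between 191.6 and 226.1. In F3 control replicate 6, GRIN2A was low at 245.6 CPM, with the others between 285.9 and 308.6. The log2 ratio of GRIN2A to GRIN2B was low in F1 control replicate 6, at 0.4553 with the others between 0.5881 and 0.6051.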

How the results depend on the processing

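The number of members called was 0 in each generation and rose to 1 in F1 by the likelihood ratio test, DESeq2 and the joint fit (GRIN2A), and to 1 in F3 by the likelihood ratio test, DESeq2, library totals without TMM, robust dispersion and the replicate block (GRIN1). Leaving out 1 library gave 0 to 1 in F1, 0 in F2 and 0 to 2 in F3, 0 to 1 for the sGC effect in F2 against F1 and in F3 against F1, 0 for F3 against F2 and for the mean effect, and 4 to 5 for control animals across generations. Control animals compared pair by pair gave 3 for F2 against F1 and 0 for F3 against F1 in place of 5. Of the pathway genes in F1, 4 at first, 10 were called by the likelihood ratio test, 10 by DESeq2, 13 in the joint fit, 0 with the replicate block and 1 without libraries 32 to 36, and in F3, 6 at first, 10 by DESeq2 and 1 in the joint fit. Leaving out 1 library gave 0 to 7 in F1, 0 in F2 and 4 to 7 in F3. Of all genes in F1, 2.08% were called at first, 5.26% by the likelihood ratio test and 5.54% by DESeq2. That share was 0.598% with the replicate block and 0.845% without libraries 32 to 36. Of all genes in F3, 5.04% were called at first, 6.94% by the likelihood ratio test and 7.54% by DESeq2. For the joint fit the share is not given here. The cause of these moves was not tested. The difference in log2 GRIN2A to GRIN2B ratio with 1 library left out ran from 0.148 to 0.243 in F1, -0.147 to -0.108 in F2 and 0.016 to 0.075 in F3, and without libraries 32 to 36 it was 0.276, -0.117 and 0.064.

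The sign turned for GRIN2B and GRIN2C in F1 (-0.024 and -0.103) and GRIN2B in F3 (-0.040) without libraries 32 to 36. With 1 library left out, the range crossed 0 for GRIN1 in F1 (-0.096 to 0.019) and F2 (-0.016 to 0.033), GRIN2A in F2 (-0.099 to 0.023), GRIN2B in F1 (-0.011 to 0.165) and F3 (-0.045 to 0.054), and GRIN3A in F3 (-0.073 to 0.015). No pairing by replicate number was evident, as only 3 of 17 same-numbered pairs had deviations correlated above 0.1 and 2 libraries correlated best with their own number. Deviations from the means of such small groups cannot exclude a pairing. With the replicate block 0.598% of all genes were called in F1 against 2.08% without it, and 1.51% against 5.04% in F3. No member changed its call but GRIN1 in F3 (adjusted p = 0.040 by edgeR). Depth limits GRIN2C most, at 255 to 578 reads in a library.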
